A study of Mus musculus with 8 samples.

Results

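The 10 genes described here encode the E2F transcription factors and the retinoblastoma (pocket) proteins that bind them. They were chosen by symbol from the list E2f1, E2f2, E2f3, E2f4, E2f5, E2f7, E2f8, Rb1, Rbl1 and Rbl2, and each matched 1 of 55401 genes in the count files. All 10 passed the filter on low counts in every comparison. Their transcripts were measured by RNA-seq in 8 mouse libraries of 4 groups, with 2 libraries per group.

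All mice were of the C57BL/6 strain. The germinal center groups were B cells sorted by FACS from the spleen of wild-type (WT) mice and of mice labelled Jmjd1c B KO (here KO), in which Jmjd1c is knocked out in B cells. Jmjd1c is a gene of the Jumonji family of histone demethylases. The activated groups were spleen B cells of both genotypes, enriched on beads through a PanB biotin step and stimulated in vitro. Not given in the sources used here are the stimulus and its length, the Cre driver, the deleted exons, the age of the mice and whether replicates came from separate animals. The p-values therefore measure only the spread between these libraries, which may be technical.

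E2F proteins control the genes that carry a cell from G1 into S phase. E2f1, E2f2 and E2f3 encode activators, E2f4 and E2f5 encode factors that act mostly as repressors together with pocket proteins, and E2f7 and E2f8 encode atypical repressors that bind DNA without a DP partner and without pocket proteins. The pocket proteins RB (Rb1), p107 (Rbl1) and p130 (Rbl2) hold E2Fs inactive until cyclin-dependent kinases phosphorylate them. In most cells p130 is abundant in quiescence, whereas p107 and several E2Fs are themselves made from E2F target genes in cycling cells. Germinal center B cells are among the fastest dividing cells of the mammalian body.

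Library totals on genes ran from 8777425 to 11414559 counts. Each level below is in CPM, a count scaled to a common library size with TMM factors over the 8 libraries. A gene passed, and is said to rise or fall, at an adjusted p under 0.05 from edgeR's quasi-likelihood test with Benjamini-Hochberg adjustment over all genes tested. Jmjd1c itself stood at 163 and 158 CPM in KO against 194 and 178 CPM in WT germinal center B cells, and at 136 and 153 against 274 and 283 CPM in activated B cells (log2 -0.2, SE 0.04, adjusted p = 1.66e-05, and log2 -0.94, SE 0.06, adjusted p = 1.81e-11). Counts over the whole gene can include exons outside the deleted part. Markers of germinal center B cells (7 of 7 found in every group) summed to 2330 and 2340 CPM in WT and to 1380 and 1370 CPM in KO germinal center libraries, against 148 to 156 CPM in activated libraries. Pan-B markers summed to between 6860 and 9670 CPM in all libraries. The proliferation marker Mki67 stood at 2230 to 2760 CPM in germinal center libraries and at 68.5 to 80.8 CPM in activated libraries. Neutrophil markers summed to 376 to 1780 CPM and erythroid markers to 637 to 1130 CPM in the activated libraries. Low proliferation transcripts and transcripts of other blood cells sit badly with a pure population of dividing, stimulated B cells, so activated is used below only as the name the labels give, and what these libraries hold was not tested further. The share of all entries left out as not uniquely aligned was 9.21% and 9.23% in KO against 6.88% and 6.99% in WT germinal center libraries, and 4.37% to 4.75% in activated libraries.

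Promoter sequence was read from RefSeq windows on GRCm38.p6 that span 250 bases before to 50 bases after a start site. A window was found for 7 of the 10 genes. They were searched on both strands for 4 short E2F elements, which were TTGGCGC (present in 2.45% of all windows), TTCGCGC (in 1.59%), TTCCCGC (in 4.6%) and TTGCCGC (in 1.81%). They were also searched for 2 CHR elements, TTTGAA (in 17.9%) and its variant TTCGAA (in 1.56%), the kind of element used by the MuvB complexes. No element contains another, though neighbouring matches may share bases. A match is a description of the letters and does not show binding. At least 1 of the 4 E2F elements was present in a window of 5 of the 7 genes (E2f2, E2f3, E2f7, E2f8 and Rbl1), and in 9.57% of all 32851 windows. A CHR element occurred in a window of E2f2, E2f3, E2f8 and Rbl2, and in 19.2% of all windows. These counts are per gene while the shares are per window, and E2f2 and E2f3 had more than 1 window each. The counts and shares are therefore not like for like. The E2f3 window with its start at 29984391 held no element. The E2F and CHR elements of E2f2 lay in different windows, with starts at 136172274 and 136180782. The windows of E2f1 and Rbl2 held none of the 4 E2F elements in these letters, and the RefSeq start used for E2f1 lies inside the GENCODE gene.

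The 250 bases before the start are printed 5′ to 3′ for E2f3, E2f7, E2f8 and Rbl1, because their transcripts were all lower in KO germinal center B cells and their windows hold an E2F element before the start. Capitals mark the E2F elements. The sequences are chr13:29986064-29986313 (minus strand, E2f3), chr10:110745189-110745438 (plus strand, E2f7), chr7:48881597-48881846 (minus strand, E2f8) and chr2:157204535-157204784 (minus strand, Rbl1).
E2f3: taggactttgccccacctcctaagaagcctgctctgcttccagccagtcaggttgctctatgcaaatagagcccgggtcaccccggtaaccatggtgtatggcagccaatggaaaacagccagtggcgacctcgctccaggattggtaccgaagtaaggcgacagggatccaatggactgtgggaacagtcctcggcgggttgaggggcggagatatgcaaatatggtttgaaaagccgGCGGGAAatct
E2f7: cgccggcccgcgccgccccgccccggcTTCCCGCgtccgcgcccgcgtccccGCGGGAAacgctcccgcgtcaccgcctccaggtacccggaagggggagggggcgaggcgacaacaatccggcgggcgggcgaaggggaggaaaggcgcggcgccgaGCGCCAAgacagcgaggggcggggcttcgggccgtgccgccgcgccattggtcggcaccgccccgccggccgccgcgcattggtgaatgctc
E2f8: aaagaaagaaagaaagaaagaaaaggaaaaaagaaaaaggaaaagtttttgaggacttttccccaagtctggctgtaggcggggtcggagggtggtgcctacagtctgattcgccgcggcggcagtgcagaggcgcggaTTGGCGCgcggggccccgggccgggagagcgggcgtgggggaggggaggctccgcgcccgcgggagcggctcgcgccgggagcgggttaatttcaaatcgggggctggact
Rbl1: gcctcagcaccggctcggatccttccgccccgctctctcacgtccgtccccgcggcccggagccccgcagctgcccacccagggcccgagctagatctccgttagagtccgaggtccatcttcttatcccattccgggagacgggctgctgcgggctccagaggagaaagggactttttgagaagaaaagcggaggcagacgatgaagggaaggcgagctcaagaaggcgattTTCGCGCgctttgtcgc
Counted from the start site, the elements began at -11 in E2f3 (with another at 19, after the start), at -223, -198 and -92 in E2f7, at -111 in E2f8 and at -17 in Rbl1. E2f7 was the member with the most elements (3) before the start, while E2f8 also had a CHR element on the opposite strand at -20 and E2f3 had 1 on its own strand at -23. E2f2 had its element after the start, at 41.

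The first comparison asked how the family differs between WT germinal center and WT activated B cells. The 7 E2F genes and Rbl1 were higher in germinal center B cells, and Rb1 and Rbl2 were lower. All 10 members passed (8 higher, 2 lower), in a comparison where 82.2% of 14426 genes passed (40.3% higher and 41.8% lower) and where the 2 groups of libraries did not overlap for 90.3% of genes, so the count by itself does not set the family apart. Its median log2 fold change was 1.5, against -0.03 over all genes. In bulk RNA, fewer cells that express a gene and less RNA per cell cannot be told apart.

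**Figure D1:**
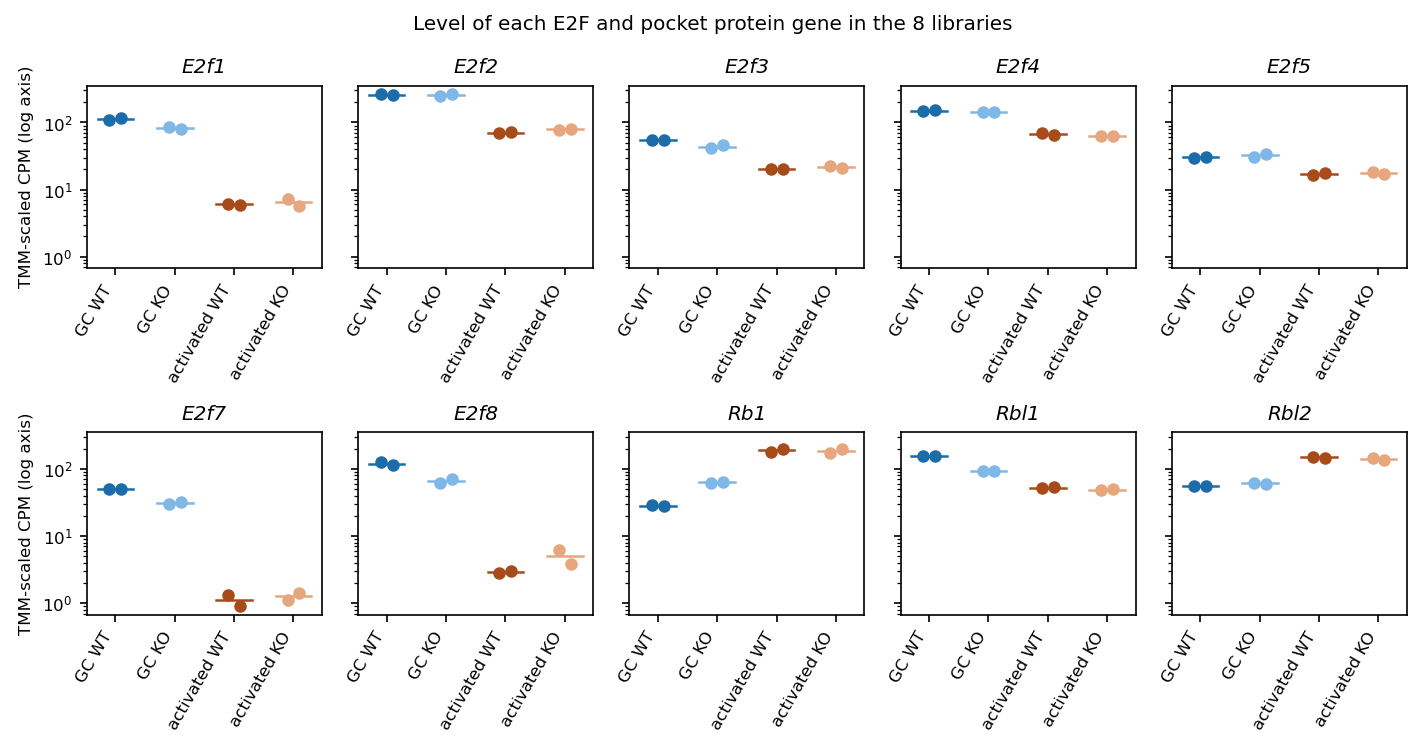
TMM-scaled CPM (log axis) of each of the 10 genes in the 8 libraries, with points for libraries and a line at the mean of each group of 2. The 7 E2F genes and Rbl1 sit higher in germinal center (GC) than in activated libraries, Rb1 and Rbl2 sit lower, and within germinal center libraries Rb1 is higher and E2f1, E2f3, E2f7, E2f8 and Rbl1 are lower in KO.

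Among the activators, E2f1 (ENSMUSG00000027490.17, chromosome 2, 154559407 to 154569892, minus strand, GRCm38) stood at 108 and 116 CPM in WT germinal center libraries and at 6.09 and 5.95 CPM in WT activated libraries. Both germinal center values lay far above both activated values, an 18.4-fold difference (log2 4.21, SE 0.10, adjusted p = 3.26e-95). E2f2 (ENSMUSG00000018983.9, chromosome 4, 136172394 to 136196057, plus strand) stood at 262 and 258 against 69.2 and 71.1 CPM (log2 1.88, SE 0.06, adjusted p = 1.6e-81). E2f3 (ENSMUSG00000016477.18, chromosome 13, 29906575 to 29986063, minus strand) stood at 54.1 and 55.6 against 20.1 and 20.3 CPM (log2 1.43, SE 0.09, adjusted p = 3.66e-35). Germinal center and activated libraries did not overlap for any of the 3 activators, and E2f1 had a wider difference than E2f2 and E2f3.

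The pocket-dependent repressors differed least among the E2Fs. E2f4 (ENSMUSG00000014859.9, chromosome 8, 105297663 to 105305370, plus strand) stood at 147 and 152 CPM in germinal center and 69.7 and 65.4 CPM in activated libraries, a 2.20-fold difference (adjusted p = 1.09e-45). E2f5 (ENSMUSG00000027552.14, chromosome 3, 14578641 to 14606309, plus strand) stood at 29.5 and 30.8 against 16.2 and 17.8 CPM, a 1.76-fold difference (adjusted p = 1.06e-11). The groups did not overlap for either gene.

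The atypical repressors E2f7 and E2f8 had the widest differences of the family. E2f7 (ENSMUSG00000020185.16, chromosome 10, 110745439 to 110787384, plus strand) had 478 and 558 counts in WT germinal center libraries and only 13 and 9 counts in WT activated libraries, or 50.2 and 50.9 against 1.34 and 0.892 CPM. Counting error is wide at 9 to 13 counts, and the fold of 44.6 (log2 5.48, SE 0.18, adjusted p = 1.44e-75) carries that error. E2f8 (ENSMUSG00000046179.17, chromosome 7, 48866429 to 48881596, minus strand) stood at 125 and 113 against 2.79 and 2.97 CPM (log2 5.35, SE 0.12, adjusted p = 8.79e-103). The intervals set by the SEs of E2f7 and E2f8 overlap, so their order is not resolved.

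The pocket protein genes split. Rb1 (ENSMUSG00000022105.6, chromosome 14, 73183673 to 73325822, minus strand) was at 29.1 and 27.9 CPM in germinal center and at 182 and 198 CPM in activated libraries, a fall to 0.149 of the activated level (log2 -2.75, SE 0.07, adjusted p = 3.58e-95). Rbl2 (ENSMUSG00000031666.15, chromosome 8, 91070057 to 91123844, plus strand) was at 55.7 in both germinal center libraries and at 152 and 148 CPM in activated libraries (log2 -1.44, SE 0.06, adjusted p = 1.34e-57). Rbl1 (ENSMUSG00000027641.13, chromosome 2, 157145893 to 157204534, minus strand) ran the other way, with 154 and 158 against 51.6 and 53.5 CPM (log2 1.56, SE 0.06, adjusted p = 3.21e-62). Germinal center B cells therefore held more Rbl1 and less Rb1 and Rbl2 transcript in CPM than did activated ones.

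Some exon sequence of Rb1, Rbl2 and E2f8 also belongs to genes on the opposite strand, and the strand setting of the counting is not given in the sources used here. The overlap covers 14.9% of the merged exon length of Rb1 (with Rcbtb2 and Lpar6), 21% of Rbl2 (with Aktip and Gm45464) and 11.2% of E2f8 (with Gm2788), so values of these 3 genes are uncertain. In activated libraries the partners were less abundant than Rb1 and Rbl2, with Lpar6 at 19.6 to 28.0 CPM, Rcbtb2 at 48.3 to 58.2 CPM, Aktip at 36.2 to 39.5 CPM and Gm45464 at 20.6 to 23.0 CPM. In WT germinal center libraries Rcbtb2 (20.9 and 18.8 CPM) and Lpar6 (6.4 and 6.02 CPM) together came close to the level of Rb1. Gm2788 stood at 18.8 and 18.6 CPM in WT germinal center libraries, below E2f8. For the other members the overlap was at most 1.46% (E2f5).

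Markers of other cell types also differed between these groups. Neutrophil markers (6 of 6 found) summed to 439 and 376 CPM in WT activated libraries and to 0 and 0.365 CPM in WT germinal center libraries, where S100a8, S100a9, Ly6g, Ngp and Elane had no count. Erythroid markers (9 of 9 found) summed to 643 and 637 against 7.66 and 9.85 CPM, and monocyte and macrophage markers (7 of 7 found) to 897 and 851 against 44.2 and 43.6 CPM. In the WT germinal center libraries Fcgr1 was at 0 among the monocyte and macrophage markers. T cell markers (7 listed) summed to 133 and 128 against 72.4 and 73.6 CPM, with Cd3e at 0 in WT germinal center libraries. Most of these T cell sums came from Cd2 alone, at 122 and 115 against 71.5 and 72.2 CPM. The part of these cells in the levels of the 10 genes was not tested.

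Members were compared with each other only after dividing CPM by merged exon length in kb. On this scale E2f4 was highest in WT germinal center libraries, with a mean of 60.9 CPM per kb, followed by E2f2 at 53.3, E2f1 at 35.5, Rbl1 at 26.0, E2f8 at 21.8 and E2f5 at 16.9. E2f3 (10.1), Rbl2 (7.37), E2f7 (5.61) and Rb1 (4.74) came last, and the ranges over the 2 libraries did not overlap between any neighbours in this order. In WT activated libraries Rb1 led at 31.6 CPM per kb, ahead of E2f4 (27.5), Rbl2 (19.8) and E2f2 (14.4), and E2f1 (1.91), E2f8 (0.529) and E2f7 (0.124) were lowest. Rb1 was thus last of the 10 in WT germinal center B cells and first in activated B cells of both genotypes on this scale. These orders depend on the length used. For some members merged exon length is well above the longest coding transcript, as for E2f7 (9009 against 5473 bases) and Rbl2 (7558 against 4925). Ranks by transcript length were not worked out, so close neighbours may change order.

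Summed per length, the E2F genes exceeded the pocket genes in germinal center libraries and were about level with them in activated libraries. The summed level of the 7 E2F genes was 203 and 206 CPM per kb in WT germinal center and 58.0 and 57.5 in WT activated libraries, while that of the 3 pocket genes was 37.9 and 38.4 against 59.0 and 61.3. The ratio of the sums was 5.34 and 5.36 in WT germinal center libraries, 5.14 and 5.28 in KO germinal center libraries, 0.982 and 0.938 in WT activated libraries and 1.07 and 0.982 in KO activated libraries. Over both genotypes, 4 germinal center libraries lay above all 4 activated libraries (mean difference 4.29, two-sided exact permutation p = 0.0286, the smallest that 4 against 4 can give). The sums are made of genes already seen to differ in these same libraries, and replicates may be technical. This p is therefore no separate support for a difference. Within a genotype, 2 libraries against 2 cannot pass 0.05. With the longest coding transcript of each gene as its length, the ratio was 4.47 to 4.84 in germinal center and 0.779 to 0.880 in activated libraries.

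**Figure D2:**
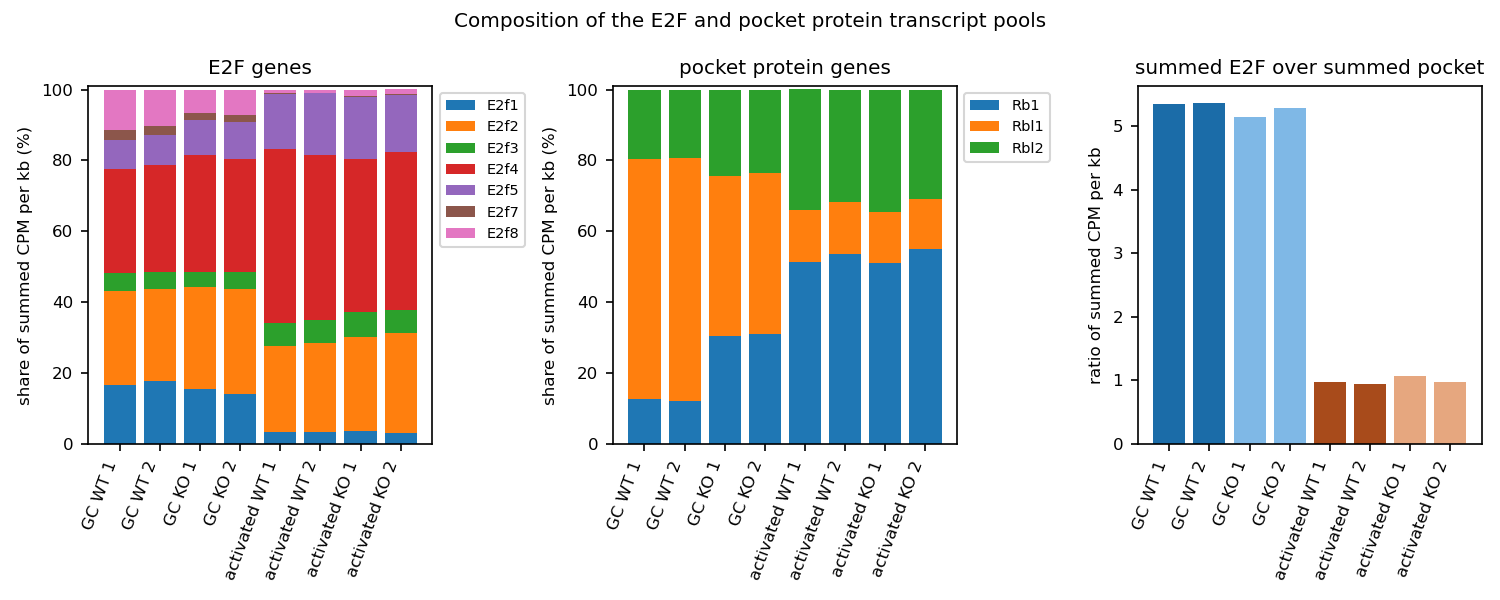
Left and middle, share (%) of each gene in the summed CPM per kb of the E2F genes and of the pocket protein genes, by library; right, the ratio of the 2 sums. The ratio is 5.14 to 5.36 in germinal center (GC) and 0.938 to 1.07 in activated libraries, and Rbl1 gives up share to Rb1 in KO germinal center libraries.

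The second comparison asked what the Jmjd1c knockout changes in germinal center B cells. Rbl1, the atypical repressors E2f7 and E2f8, and the activators E2f1 and E2f3 fell in KO cells, and Rb1 rose. Of the 10 members, 5 fell, 1 rose and 4 did not pass, and 50.2% of 13350 genes passed in this comparison (25.1% higher and 25.1% lower). The KO and WT libraries did not overlap for 8 of 10 members, and for 72.8% of all genes. The median log2 fold change of the members was -0.21, against -0.00 over all genes (-0.00443). The calls of the 6 genes were kept, with 5 lower and 1 higher, under every alternative run for this comparison, each left-out library included.

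**Figure D3:**
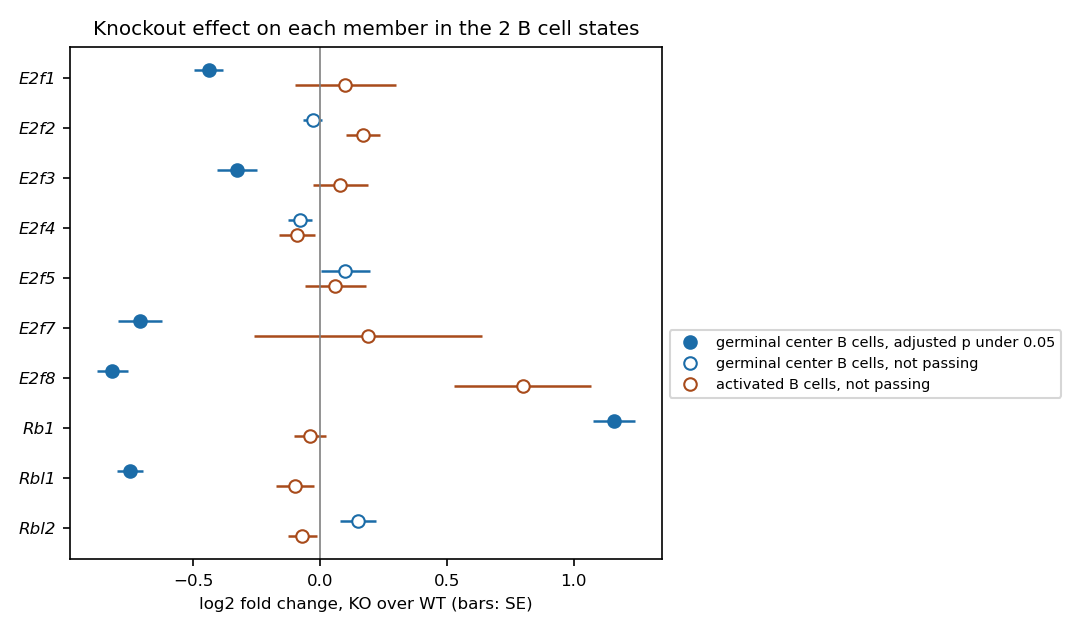
Log2 fold change of KO over WT with its SE for each member, in germinal center B cells and in activated B cells; filled points passed at an adjusted p under 0.05. In germinal center B cells Rb1 lies at 1.16 and E2f8, Rbl1, E2f7, E2f1 and E2f3 lie between -0.82 and -0.33, while no member passed in activated B cells.

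The pocket protein genes showed the clearest exchange. Rb1 had 512 and 540 counts in KO and 277 and 306 counts in WT germinal center libraries, or 62.4 and 64.3 against 29.1 and 27.9 CPM. Both KO values lay above both WT values, a 2.23-fold rise (log2 1.16, SE 0.08, adjusted p = 6.3e-42). Rbl1 fell from 154 and 158 to 91.7 and 93.7 CPM, so that it fell by 40.5% and the groups again lay apart (log2 -0.75, SE 0.05, adjusted p = 5.53e-45). Rbl2 stood at 62.7 and 60.6 CPM in KO against 55.7 in both WT libraries (log2 0.15, SE 0.07, adjusted p = 0.0717) and did not pass, although the groups did not overlap.

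The partners of Rb1 on the opposite strand were also higher in KO germinal center B cells. Lpar6, which encodes a lysophosphatidic acid receptor and lies within Rb1, had 124 and 169 counts in KO and 61 and 66 counts in WT libraries (log2 1.51, SE 0.17, adjusted p = 1.22e-18). Rcbtb2 had 230 and 243 against 199 and 206 counts (log2 0.53, SE 0.11, adjusted p = 9.54e-06). Reads of the 3 genes in shared exons cannot be told apart. Lpar6 and Rcbtb2 together had fewer counts than Rb1 in all 4 germinal center libraries but came close to it in both WT libraries, and their part in the rise of Rb1 was not tested.

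The atypical repressors fell further than the activators. E2f8 had 513 and 600 counts in KO and 1190 and 1236 in WT libraries, or 62.5 and 71.4 against 125 and 113 CPM, and so fell by 43.3% (log2 -0.82, SE 0.06, adjusted p = 2.01e-41). Its opposite-strand partner Gm2788 moved with it, at 10.1 and 9.28 against 18.8 and 18.6 CPM (log2 -0.94, SE 0.15, adjusted p = 1.54e-09). E2f7 went from 50.2 and 50.9 to 29.7 and 31.8 CPM (log2 -0.71, SE 0.09, adjusted p = 3.52e-15). KO and WT libraries of both E2f7 and E2f8 stayed apart.

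Of the activators, E2f1 went from 108 and 116 to 84.6 and 80.1 CPM, and so fell by 26.3% (log2 -0.44, SE 0.06, adjusted p = 1.48e-13). E2f3 went from 54.1 and 55.6 to 41.0 and 46.3 CPM, and so fell by 20.2% (log2 -0.33, SE 0.08, adjusted p = 0.000117). E2f2, the most abundant activator transcript, stood at 246 and 263 CPM in KO against 262 and 258 in WT, with overlapping groups (log2 -0.03, SE 0.04, adjusted p = 0.579). The pocket-dependent repressors did not pass either, with E2f4 at 142 in both KO libraries against 147 and 152 CPM (log2 -0.08, SE 0.05, adjusted p = 0.186) and E2f5 at 30.7 and 33.8 against 29.5 and 30.8 CPM (log2 0.10, SE 0.10, adjusted p = 0.418). With library totals alone as scaling, E2f4 passed as lower (log2 -0.13, SE 0.05, adjusted p = 0.0181).

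These shifts changed the makeup of both transcript pools per length while the balance between the pools moved little. Rb1 held 12.7% and 12.1% of the summed pocket gene level in WT and 30.5% and 31.1% in KO germinal center libraries. Rbl1 held 67.8% and 68.7% in WT and 45.0% and 45.5% in KO libraries, and Rbl2 rose from 19.4% and 19.2% to 24.4% and 23.3% of the pool. Among the E2Fs, the atypical pair held 14.1% and 12.8% in WT against 8.47% and 9.19% in KO libraries, the E2f4 and E2f5 share was 37.7% and 38.6% against 43.0% and 42.4%, and the share of the activators was 48.2% and 48.6% against 48.6% and 48.5%. KO and WT libraries did not overlap in any of these shares except that of the activators (as with the ratio, 2 libraries against 2 cannot pass 0.05).

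Other genes of the pathway were taken from lists of textbook members and targets, and their counts are to be read against the 25.1% of all genes that fell and the 25.1% that rose. Some of them also share exon sequence with opposite-strand genes, and their values are uncertain in the same way. Examples are Fen1 (84.2% of merged exon length), Gins2 (67.3%), Kif20a (29.3%), Rbbp4 (18%) and Ccna2 (12.5%). Of 31 E2F targets of G1 and S phase, 25 fell, 1 rose and 5 did not pass (median log2 -0.43), and of 18 DREAM targets of G2 and M phase, 16 fell, 0 rose and 2 did not pass (median -0.32, 17 at an unadjusted p under 0.05). DREAM is the repressor complex in which p130 or p107 joins E2F4 and the MuvB core. Mcm6, of the replicative helicase, went from 544 and 543 to 360 and 339 CPM (log2 -0.63, SE 0.04). Tk1, which encodes thymidine kinase, was the member of the first list that rose (log2 0.26, SE 0.05). Of the second list, Top2a, which encodes a DNA topoisomerase, fell by 0.47 and the mitotic cyclin gene Ccnb2 by 0.66 on the log2 scale.

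Genes listed as partners of E2Fs and pocket proteins, not all of them subunits of a shared complex, mostly fell too. Tfdp1, which encodes the main DP dimerization partner, went from 345 and 338 to 261 and 259 CPM (log2 -0.39, SE 0.04, adjusted p = 2.35e-23). Tfdp2, the other DP gene, stood at 10.4 and 10.7 against 8.81 and 10.8 CPM (log2 0.10, SE 0.17, adjusted p = 0.65) and did not pass. E2f6, a repressor that works without pocket proteins, stood at 22.8 and 24.0 against 32.0 and 26.4 CPM (log2 -0.31, SE 0.11, adjusted p = 0.0101). In the list of these 3 genes, 2 fell, but only 1 with DESeq2, without KO replicate 1 or without WT replicate 1. Of 8 MuvB and DREAM partners, 7 fell and 0 rose (median -0.24, 7 at an unadjusted p under 0.05), among them the histone chaperone gene Rbbp4 (-0.59, SE 0.04) and the MuvB subunit gene Lin54 (-0.44, SE 0.09), with 4 lower by DESeq2.

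Upstream of the pocket proteins, cyclin D genes moved in opposite directions. Ccnd3 fell from 430 and 429 to 237 and 224 CPM (log2 -0.89, SE 0.04, adjusted p = 4.59e-120), and Ccnd2 rose from 23.7 and 22.9 to 49.1 and 48.9 CPM (log2 1.08, SE 0.09, adjusted p = 2.72e-29). Of 9 cyclin and kinase genes that phosphorylate pocket proteins, 5 fell, 2 rose and 2 did not pass (median -0.22), where 50.2% of all genes passed, with the S phase cyclin gene Ccna2 among those that fell (-0.58, SE 0.04) and the G1 kinase gene Cdk6 among those that rose (0.24, SE 0.08). With DESeq2, without KO replicate 2 or without WT replicate 1, 1 gene of this list rose. Among 5 CDK inhibitor genes tested, Cdkn1b (p27) rose from 34.7 and 38.1 to 76.5 and 74.5 CPM (log2 1.05, SE 0.08), Cdkn2c (p18) fell by 0.62 (SE 0.07) and Cdkn1a (p21), at 0.731 to 2.31 CPM, fell by 1.33 (SE 0.44) on the log2 scale. Cdkn1a rests on few counts, and 1 inhibitor gene in place of 2 was lower with DESeq2, without KO replicate 1 or without WT replicate 2.

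**Figure D4:**
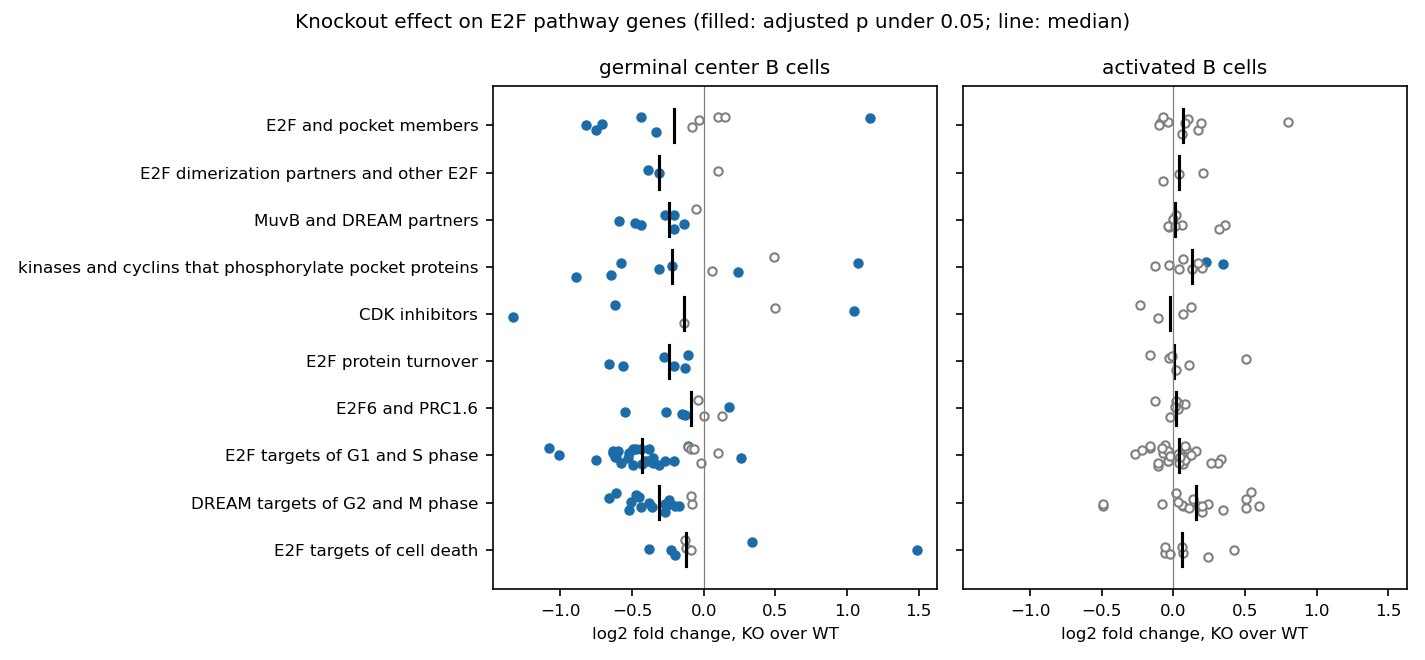
Log2 fold change of KO over WT for the 10 members and for each gene of the pathway lists, in germinal center (left) and activated B cells (right); filled points passed at an adjusted p under 0.05 and the line is the median of each list. The G1 and S phase targets have a median of -0.43 and the G2 and M phase targets one of -0.32 in germinal center B cells, and 0.04 and 0.15 in activated B cells.

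Markers of cell state and of other cells moved with the genotype in the same libraries. All 7 germinal center B cell markers fell in KO cells (median log2 -0.68). Of the pan-B markers 5 of 6 rose and 0 fell (median 0.26, 5 at an unadjusted p under 0.05). Erythroid markers summed to 63.4 and 77.4 CPM in KO against 7.66 and 9.85 CPM in WT libraries, with 6 of 6 tested members higher. Monocyte and macrophage markers summed to 111 and 129 against 44.2 and 43.6 CPM, with 4 of 5 tested higher, and T cell markers to 147 and 154 against 72.4 and 73.6 CPM, with 3 of 3 tested higher. Cd2 alone made up most of the T cell sums, at 139 and 145 against 71.5 and 72.2 CPM. No other T cell marker exceeded 3.41 CPM in germinal center libraries. Neutrophil markers stayed at 1.10 and 1.43 CPM in KO libraries, with Camp and Elane at 0. Plasma cell markers summed to 710 and 709 against 637 and 658 CPM, with 3 of 4 higher. Most of these sums came from Jchain, which did not pass, at 488 and 500 against 491 and 505 CPM. Sdc1 rose from 2.1 and 3.1 to 12.2 and 10.4 CPM (log2 2.1, SE 0.23). Prdm1 rose from 5.46 and 5.56 to 19.7 and 16 CPM (log2 1.69, SE 0.17), and Xbp1 rose by 0.4 (SE 0.045) on the log2 scale. The part of these cells and states in the change of the 10 genes was not tested.

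The third comparison asked the same question in activated B cells. No member passed there. With edgeR 0 of 10 members passed, where 6.27% of 14110 genes did (4.85% higher and 1.42% lower). DESeq2 also called 0, and 2 members had an unadjusted p under 0.05. The libraries of the 2 genotypes did not overlap for 6 of 10 members, and for 47.8% of all genes. The median log2 fold change of the members was 0.07.

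E2f8 had the largest fold change, from low counts. It had 61 and 38 counts in KO and 27 and 30 counts in WT libraries, or 6.25 and 3.84 against 2.79 and 2.97 CPM, and the groups did not overlap (log2 0.80, SE 0.27, adjusted p = 0.0862). It passed in 3 of 10 alternatives: with the replicate block (0.79, adjusted p = 0.0338), with all 8 libraries in 1 fit (0.80, adjusted p = 0.023) and without KO replicate 2 (1.11, adjusted p = 0.00873). Without KO replicate 1, the value was 0.41. E2f2, the other member with an unadjusted p under 0.05, stood at 77.2 and 79.9 against 69.2 and 71.1 CPM (log2 0.17, SE 0.07, adjusted p = 0.177).

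The remaining 8 members differed by between -0.10 and 0.19 on the log2 scale. Rb1 stood at 172 and 196 CPM in KO against 182 and 198 in WT (log2 -0.04, SE 0.06, adjusted p = 0.788) and Rbl1 at 48.3 and 49.6 against 51.6 and 53.5 CPM (log2 -0.10, SE 0.07, adjusted p = 0.525). Rbl2 stood at 146 and 138 against 152 and 148 CPM (log2 -0.07, SE 0.06, adjusted p = 0.563). E2f1, at 7.17 and 5.75 against 6.09 and 5.95 CPM, and E2f7, with 11 and 14 against 13 and 9 counts, had overlapping groups. At 9 to 14 counts a change of E2f7 as large as in germinal center B cells was not detectable at this depth (log2 0.19, SE 0.45).

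Targets of the family did not pass in activated cells either, where 6.27% of all genes did. Of 31 G1 and S phase targets 0 passed with edgeR (median 0.04), 1 had an unadjusted p under 0.05 and DESeq2 called 0. Of 18 G2 and M phase targets 0 passed with edgeR (median 0.15), 4 had an unadjusted p under 0.05 and DESeq2 called 0. These 4 were all higher in KO: Mki67 (log2 0.2, SE 0.068), Ccnb2 (0.54, SE 0.2), Birc5 (0.51, SE 0.23) and Bub1 (0.51, SE 0.23). Ttk, Nek2 and Cenpa had negative values in this list. With all 8 libraries in 1 fit, 2 of the list passed as higher and 0 as lower. Only 2 of 9 cyclin and kinase genes rose, Cdk6 (log2 0.35, SE 0.07, adjusted p = 0.00255) and Ccnd3 (log2 0.23, SE 0.06, adjusted p = 0.021), and DESeq2 called neither. Neutrophil markers rose in all 6 members and summed to 1780 and 1450 CPM in KO against 439 and 376 CPM in WT libraries, erythroid markers rose in 7 of 9 and summed to 1130 and 942 against 643 and 637 CPM, and monocyte and macrophage markers rose in 4 of 7 and summed to 1460 and 1340 against 897 and 851 CPM. The part of these cells in the value of E2f8 was not tested.

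The difference between the knockout effects was then tested over all 8 libraries. It is negative where KO against WT was lower in the germinal center state. The Jmjd1c transcript itself fell less in germinal center (log2 -0.2) than in activated B cells (log2 -0.94). The part of this in the differences below was not tested. Of the 10 members, 4 had a negative and 2 a positive difference that passed, where 31.2% of 14992 genes passed (17.5% higher and 13.8% lower). E2f8 differed by -1.63 (SE 0.25, adjusted p = 9.16e-08), Rb1 by 1.2 (SE 0.10, adjusted p = 2.47e-19) and Rbl1 by -0.65 (SE 0.09, adjusted p = 8.8e-09). These 3 genes passed under all 13 alternatives, with ranges of -1.94 to -1.24, 1.11 to 1.30 and -0.68 to -0.61.

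The other differences were less firm. E2f1 differed by -0.55 (SE 0.20, adjusted p = 0.0252) and E2f3 by -0.41 (SE 0.14, adjusted p = 0.0151). E2f1 did not pass in 7 of 13 alternatives, with an adjusted p of 0.0593 with DESeq2 and of 0.278 without activated KO replicate 1 (difference -0.38). It also missed the threshold without germinal center KO replicate 2 (0.058), without germinal center WT replicate 2 (0.0909) and without activated WT replicate 1 (0.0599) or 2 (0.108). E2f3 did not pass in 5, at 0.0864 with DESeq2, 0.10 without germinal center KO replicate 1, 0.0689 without germinal center WT replicate 2, 0.0885 without activated KO replicate 1 and 0.0554 without activated WT replicate 2. Rbl2, with a difference of 0.22 (SE 0.09, adjusted p = 0.047), passed in only 2 of 13 alternatives, those that left out activated KO replicate 1 or activated WT replicate 2.

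The difference for E2f7 was -0.91 (SE 0.43, adjusted p = 0.102), which did not pass in any of the 13 alternatives, so an unequal effect on E2f7 was not shown. E2f2 missed the threshold at -0.20 (SE 0.08, adjusted p = 0.051) and passed in 4 of 13 alternatives, with RLE scaling (0.0272), with library totals alone (0.0183), without germinal center KO replicate 2 (0.0345) and without activated KO replicate 1 (0.0488). E2f4 (0.01, SE 0.09) and E2f5 (0.04, SE 0.16) had differences close to 0. Among the pathway lists, 17 of 31 G1 and S phase targets and 11 of 18 G2 and M phase targets had a negative difference that passed, as did 13.8% of all genes, and 0 had a positive one. Without activated WT replicate 2 the second count was 7.

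The fourth comparison set KO germinal center against KO activated B cells. The same 8 members were higher and Rb1 and Rbl2 lower, where 78.7% of 14307 genes passed (39.2% higher and 39.5% lower) and the libraries of 88.7% did not overlap. This comparison shares its libraries with both knockout comparisons, so its values are given only side by side with those of WT cells. The log2 difference of E2f8 was 3.74 (SE 0.14) in KO and 5.35 (SE 0.12) in WT cells, and that of E2f7 was 4.59 (SE 0.20) and 5.48 (SE 0.18). E2f1 had 3.68 (SE 0.11) and 4.21 (SE 0.10), Rbl1 had 0.93 (SE 0.07) and 1.56 (SE 0.06), and Rb1 had -1.53 (SE 0.06) and -2.75 (SE 0.07). For E2f4 the values were 1.17 (SE 0.06) and 1.14 (SE 0.06), and for E2f5 they were 0.87 (SE 0.11) and 0.81 (SE 0.11). In KO germinal center libraries the order per length was also changed, with Rb1 seventh at a mean of 10.5 CPM per kb and E2f7 last at 3.41, and the ranges of Rbl2 (8.16) and E2f3 (8.04) overlapped.

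Finally, each member was set beside the 3 protein-coding genes with the most similar profile. Likeness was the Euclidean distance between log2 CPM profiles centred on their mean over the 8 libraries, among 9361 other genes with a mean of at least 50 counts. It is a description, since the points share 4 groups. The nearest genes were Cdc45 (0.213), Kif23 and Ncapg for E2f1, Rrm2 (0.422), Cdc20 and Uhrf1 for E2f7, and Ckap2l (0.534), Birc5 and Cdca8 for E2f8. For Rb1 they were B4galt1 (0.246), Crebl2 and Dgka, for Rbl1 Fkbp5 (0.142), Phykpl and Ccp110, and for Rbl2 Rlf (0.141), Kmt2e and Khnyn. E2f2 was nearest to Ints11 (0.177), Get4 and Ublcp1, E2f3 to Slc25a5 (0.137), Sap18 and Selenow, E2f4 to Abcf1 (0.101), Mrpl9 and Anapc5, and E2f5 to Dph2 (0.115), Ciao3 and Jmjd8. Within the family, the pairs in which each gene was the nearest member of the other were E2f3 and E2f4 (0.361), E2f7 and E2f8 (1.10) and Rb1 and Rbl2 (1.55). For the rest, the nearest member was E2f3 for Rbl1 (0.481) and E2f2 (0.866), E2f4 for E2f5 (0.539) and E2f8 for E2f1 (1.18). Every member had closer genes outside the family, and among all candidates Rbl2 ranked 669 for Rb1 and Rb1 ranked 2713 for Rbl2.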

How the data were processed

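RNA-seq read counts per gene from 8 mouse libraries were analysed. The deposited files hold whole-number counts that the authors made. The submitters' processing notes list Trimmomatic, DESeq2 and the build mm10. An aligner, a counting program and a strand setting were not given in the sources used here. Sample titles gave groups and replicate numbers. Library sizes and tests left out 5 summary entries without a gene (47.2% to 53.9% of entries had no feature, 1.12% to 1.26% were ambiguous). Of 55401 gene identifiers 54349 were in GENCODE M21 (GRCm38), used for coordinates and lengths.

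Tests used edgeR 4.0.16 in R 4.3.3 with TMM scaling, filterByExpr and the quasi-likelihood F test, with Benjamini-Hochberg adjustment and a threshold of 0.05. Each comparison used the libraries of its 2 groups, and the difference of knockout effects used all 8. The procedure was tested on simulated counts. Alternatives were RLE scaling, library totals, DESeq2 1.42.0, no filter, a replicate block, 1 fit of all 8 libraries and leaving out each library.

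Named genes were the 10 members, E2f6, Tfdp1, Tfdp2, up to 2 genes per direction, list and knockout comparison with the lowest p, and the 3 nearest profiles of each member. Some genes that this rule names are not reported here. Lpar6, Rcbtb2, Aktip, Gm45464 and Gm2788 were named for their exon overlap, and Mki67 and Jmjd1c as checks. Members and lists were chosen with earlier results of these data known. Replicates of a group differed by more than sampling noise (chi-square per degree of freedom 1.39 to 2.40).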

Additional observations from a re-analysis of the deposited data

Results flagged for a closer look

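For 6 of the 10 genes the knockout effect differed between germinal center and activated B cells by a test of the difference itself, in which 31.2% of all genes passed. The differences on the log2 scale, germinal center minus activated, were -1.63 for E2f8, 1.2 for Rb1, -0.65 for Rbl1, -0.55 for E2f1, -0.41 for E2f3 and 0.22 for Rbl2. E2f8, Rb1 and Rbl1 passed under every alternative run, while E2f1, E2f3 and Rbl2 did not. For E2f8 the activated side rests on 27 to 61 counts per library. Groups of 2 libraries are too small to be tested for a library that stands apart.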

How the results depend on the processing

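Among values of single members under alternatives, 499 kept their side of the threshold, 23 lost significance and 8 gained it, and no passing value reversed. All 23 losses were in the difference of knockout effects. The number of members passing in activated B cells was 0, and 1 with the replicate block, 1 with all 8 libraries in 1 fit and 0 to 1 with each library left out. In the difference of effects it was 6, and 3 with DESeq2 and 3 to 5 with each library left out. Over all genes, DESeq2 gave 4342 calls against 6698 in germinal center KO against WT, 349 against 885 in activated KO against WT and 3069 against 4685 for the difference. In activated B cells no filter gave 465 and the replicate block 1388 calls, and leaving out each library gave 601 to 951. Library totals moved the median of all genes from -0.0338 to -0.156 and from -0.0172 to -0.194 in the WT and KO cell state comparisons, and members kept their calls. Replicate numbers share no stated origin, and deviations of same-numbered libraries correlated between -0.0282 and 0.0326. The block changed no member's call except those of E2f8 in activated B cells and of Rbl2 in the difference (0.22, adjusted p = 0.0529). In activated libraries E2f7 had 9 to 14 and E2f8 27 to 61 counts, which limits both. Transcript length in place of exon length was chosen after seeing the data. It moved the mean ratio of summed E2F to pocket levels in germinal center B cells from 5.35 to 4.84 in WT and from 5.21 to 4.54 in KO, and in activated B cells from 0.96 to 0.797 in WT and from 1.02 to 0.847 in KO.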

Other observations

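Of 8 E2F targets of cell death, 2 rose and 3 fell in KO germinal center B cells, a share near the 50.2% of all genes that passed there. Trp73, the gene of the p53 relative p73, rose from 4.2 and 3.65 CPM to 11 CPM in both KO libraries (log2 1.49, SE 0.21, edgeR adjusted p = 6.07e-12), and the initiator caspase gene Casp8 rose by 0.34 (SE 0.06). The BH3-only gene Bcl2l11 fell by 0.23 (SE 0.07) on the log2 scale. With DESeq2 only 1 of this list fell.

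Of 8 genes around E2F6 in the PRC1.6 complex, 4 fell and 1 rose (median -0.08), again near the 50.2% of all genes. Cbx3, which encodes the heterochromatin protein HP1 gamma, fell by 0.55 (SE 0.06) and the deacetylase gene Hdac2 by 0.26 (SE 0.07), and Mga, the scaffold gene of the complex, rose by 0.18 (SE 0.05). With DESeq2 1 of these 8 genes fell and 0 rose, and without KO replicate 1 only 1 fell. Of 6 genes of E2F protein turnover 6 fell (median -0.24), against 25.1% of all genes, but 2 with DESeq2 or without KO replicate 1 and 3 without WT replicate 2, with the anaphase-promoting complex activators Cdc20 (-0.66, SE 0.04) and Fzr1 (-0.28, SE 0.05) as examples.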
